A study of Mus musculus with 2 samples.

Results

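The granins and related cargo of dense-core vesicles, *Chga*, *Chgb*, *Scg2*, *Scg3*, *Vgf* and *Resp18*, were followed through the cells of the mouse neurohypophysis (NH), the posterior lobe of the pituitary. These 6 genes were chosen by their symbols, out of 27998 genes in the count matrices, and all 6 were listed in both pools and in the authors' table of cluster means. The tissue came from C57BL/6 males, for which no treatment is given, of 3 months of age and was dissociated with Liberase TM and papain. Mice were pooled 5 at a time into 2 pools, the replicates of a single condition. Droplet sequencing tags each captured mRNA molecule at its 3' end with a unique molecular identifier (UMI), and the number of UMIs is the value analysed. The dissection retained tissue of the intermediate lobe (IL), so that its cells are part of both pools.

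Granins are acidic proteins that are sorted into dense-core vesicles, the storage organelles of endocrine cells and neurons, where they condense with peptide hormones and amines. Prohormone convertases cut granins and hormone precursors inside the vesicle, and calcium triggers the release of the whole content. Granins are therefore widely used as markers of endocrine and neuroendocrine cells, among them the melanotropes of the IL and the hormone cells of the anterior lobe. Pituicytes, the resident glia of the NH, are not secretory endocrine cells, and the axon terminals of the NH belong to neurons whose cell bodies lie in the hypothalamus.

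The files give the genes as ENSMUSG00000021194 (*Chga*), ENSMUSG00000027350 (*Chgb*), ENSMUSG00000050711 (*Scg2*), ENSMUSG00000032181 (*Scg3*), ENSMUSG00000037428 (*Vgf*) and ENSMUSG00000033061 (*Resp18*). All 6 are protein coding and lie on 5 chromosomes (GENCODE vM21, GRCm38). *Resp18* spans positions 75272199 to 75278415 and *Scg2* 79434669 to 79440120 on the minus strand of chromosome 1. *Chgb* spans 132781278 to 132795079 on chromosome 2, *Vgf* 137026392 to 137033351 on chromosome 5 and *Chga* 102554969 to 102565028 on chromosome 12, all on the plus strand. *Scg3* spans 75643189 to 75684056 on the minus strand of chromosome 9.

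The 250 bases before the transcription start were available from RefSeq (GRCm38.p6) for 5 of the 6 genes, all but *Vgf*. Those of *Scg2*, *Chgb*, *Chga* and *Resp18*, the members with most UMIs, are shown. The cAMP response element (CRE), TGACGTCA, and its shorter core TGACG were searched on both strands, and every full CRE also holds the core on both strands. Capitals mark the CRE or core, and each sequence runs 5' to 3' on the strand of its gene. The RefSeq start site follows the last base. The window of *Chgb* lies within the GENCODE span of the gene given above, and that of *Scg2* overlaps it in part, since these spans begin further upstream.
Scg2 (chr1:79440027-79440276, minus strand): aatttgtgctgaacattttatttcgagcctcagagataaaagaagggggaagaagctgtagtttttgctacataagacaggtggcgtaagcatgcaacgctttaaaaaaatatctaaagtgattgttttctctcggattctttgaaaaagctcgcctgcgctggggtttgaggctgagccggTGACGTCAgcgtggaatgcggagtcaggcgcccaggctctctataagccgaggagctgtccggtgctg
Chgb (chr2:132781392-132781641, plus strand): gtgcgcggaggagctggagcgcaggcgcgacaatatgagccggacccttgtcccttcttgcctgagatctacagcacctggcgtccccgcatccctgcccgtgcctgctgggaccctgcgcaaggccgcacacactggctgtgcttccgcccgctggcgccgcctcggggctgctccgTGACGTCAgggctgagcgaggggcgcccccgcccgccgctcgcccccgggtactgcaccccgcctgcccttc
Chga (chr12:102554691-102554940, plus strand): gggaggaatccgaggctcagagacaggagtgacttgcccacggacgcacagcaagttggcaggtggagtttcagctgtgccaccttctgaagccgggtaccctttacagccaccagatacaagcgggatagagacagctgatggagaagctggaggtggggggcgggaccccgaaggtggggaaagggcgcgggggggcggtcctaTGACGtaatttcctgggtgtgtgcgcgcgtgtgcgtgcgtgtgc
Resp18 (chr1:75278416-75278665, minus strand): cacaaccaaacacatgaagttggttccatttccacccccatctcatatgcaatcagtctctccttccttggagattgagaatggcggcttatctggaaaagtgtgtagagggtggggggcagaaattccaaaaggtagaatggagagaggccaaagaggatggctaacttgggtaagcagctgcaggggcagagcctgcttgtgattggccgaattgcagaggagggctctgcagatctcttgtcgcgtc
The CRE began 68 bases before the start site of *Scg2* and 72 bases before that of *Chgb*. The shorter core was found in *Chga*, 44 bases before the start site, and in *Scg3*, 30 bases before it. Neither was in the window of *Resp18*. Of 32851 mouse promoter windows of this length, 1.55% held the CRE and 17.8% the core. A match in these letters describes the sequence and is not evidence of a bound site.

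The cells that passed the quality limits numbered 273 in pool 1 and 255 in pool 2, with medians of 2050.0 and 2330.0 UMIs and no barcode in common. Their types were those of the authors, recovered from the deposited cluster means. The 148 IL cells, in the clusters that the table names neural progenitor a and b, carried the melanotrope markers *Pomc*, *Pcsk2*, *Pax7*, *Oacyl*, *Tbx19* and *Drd2*, which summed to 125445 CPM (counts per 1000000 UMIs) in pool 1 and 95360 in pool 2, with *Drd2* at 0 in the latter. The 23 epithelial-like cells had UMIs of all 5 markers of their type in each pool. The other types were 196 pituicytes, 95 macrophage/microglia, 42 T-cell like cells, 13 vascular endothelia and 11 vascular and leptomeningeal cells (VLMC).

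Some cells went against their type label. Levels, tests, ratios and shares that they move most are also given without them, whereas the vesicle gene lists and the genes most like each member were taken with all cells. In IL, 7 cells of pool 2 held at least 25 UMIs of the anterior lobe hormone genes *Gh*, *Prl*, *Cga*, *Lhb*, *Fshb* and *Tshb* together, from 73 to 910, whereas no other IL cell held more than 16. Of these 7 cells, 6 had 5 or fewer *Pomc* UMIs and at most 1 *Pcsk2* UMI. Among the epithelial-like cells, 5 of 23 passed the same limit, 2 of them in pool 1. Among the pituicytes, 2 of 196 held at least 100 *Pomc* UMIs, 636 in a cell of pool 2 and 781 in a cell of pool 1. These limits were set after the values were seen.

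Of the UMIs of the 6 genes in kept cells, IL cells held 89.6%, epithelial-like cells 6.996% and pituicytes 2.94%. Without the cells named above these shares were 97.2%, 1.35% and 0.958%. For all genes, IL cells held 281271 of the 699676 UMIs of kept cells in pool 1 and 249540 of 726706 in pool 2. Each of the 5 genes that could be tested was higher in IL cells than in the other types, by ln fold changes of 3.74 to 4.65. *Vgf* had 5 UMIs in all kept cells and could not be tested. The level of each gene by type and pool is plotted.

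**Figure D1:**
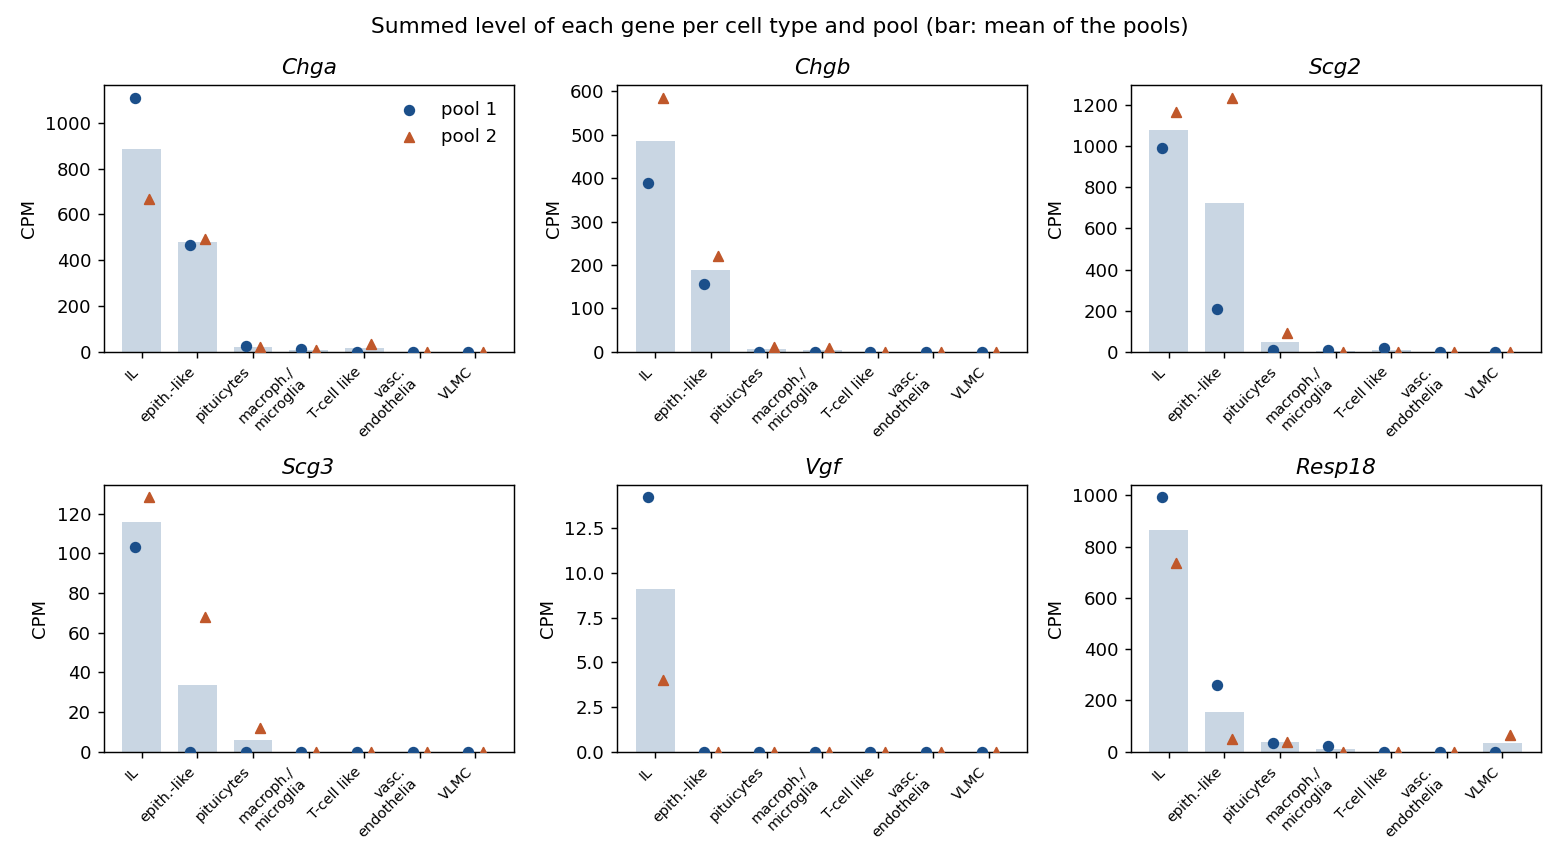
Level of each gene in CPM (vertical axis, scaled per gene) in the summed cells of 7 types (horizontal axis), with circles for pool 1, triangles for pool 2 and bars for the mean of the pools. IL cells stood highest for all 6 genes on the mean, and *Scg2* in the epithelial-like cells of pool 2 reached the level of IL cells.

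*Chga*, the founding member of the granin family, reached 1109 CPM in the IL cells of pool 1 and 665 CPM in those of pool 2, which averages to 887 ± 314 CPM (SD, n = 2). In epithelial-like cells it was found at 466 and 491 CPM, and in pituicytes at 25.5 and 19.7 CPM. The 3 ranges did not overlap, and without the *Pomc*-rich cells the pituicytes had 4.32 and 8.12 CPM. Relative to the average of all other types, *Chga* stood 4.43 ln units higher in IL cells, with an SE of 0.29 and an edgeR adjusted p of 2.76e-49. Each SE in this report is the ln fold change divided by the square root of the F statistic of its test. It was not taken from the fit itself and is only approximate where types have 0 counts. A type was called higher for a gene when the adjusted p did not exceed 0.05 and the ln fold change reached 1. The p-values rest on a spread between the 2 pools that the fit shares over genes. They hardly reflect a gene's own difference between the pools.

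*Chgb*, a granin that shares the vesicle core with *Chga*, was found in IL cells at 388 CPM in pool 1 and 585 CPM in pool 2. Epithelial-like cells followed at 155 and 220 CPM, and pituicytes at 0 and 11.8 CPM, the latter from 3 UMIs, 1 of them in a *Pomc*-rich cell. IL cells were above every other type in both pools, and the ln fold change was 4.65, with an SE of 0.35 and an edgeR adjusted p of 4.57e-38. The 7 hormone-rich cells held 61 of the 146 *Chgb* UMIs in IL cells of pool 2, and without them the level there was 375 CPM.

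*Scg2*, the precursor of the peptide secretoneurin, had 674 UMIs over all cells and reached 992 and 1166 CPM in IL cells. Epithelial-like cells differed between pools, with 207 CPM in pool 1 and 1235 CPM in pool 2, so that they overlapped with IL cells. In pituicytes the values were 8.49 and 90.7 CPM, and without the *Pomc*-rich cells 4.32 and 4.06 CPM. Against the other types, IL cells had an ln fold change of 4.49, with an SE of 0.29 and an edgeR adjusted p of 1.98e-50.

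*Scg3*, which binds cholesterol and carries *Chga* protein to the vesicle membrane, had fewer UMIs. IL cells held 103 and 128 CPM. Epithelial-like cells held 0 and 67.7 CPM, and pituicytes 0 and 11.8 CPM, the latter from 3 UMIs of 1 *Pomc*-rich cell. Immune cells, which are the macrophage/microglia and T-cell like cells, had none. IL cells stood 10.7-fold above a limit of 3 counts in immune cells over both pools, the counting error of the IL cells left aside. The excess in IL cells was 3.74 ln units, with an SE of 0.54 and an edgeR adjusted p of 2.15e-10. Only the IL sums of *Scg3* reached the filter on low counts, so that this call is not independent of the filter.

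*Resp18*, a vesicle protein of endocrine cells that is related to the protein tyrosine phosphatase receptors of the vesicle membrane, reached 992 and 737 CPM in IL cells. Epithelial-like cells had 259 and 50.8 CPM, and pituicytes 33.9 and 39.5 CPM, or 12.97 and 28.4 CPM without the *Pomc*-rich cells. VLMC had 66.2 CPM in pool 2, from 1 UMI. The excess in IL cells was 4.46 ln units, with an SE of 0.28 and an edgeR adjusted p of 1.01e-52. Outside IL cells, only the epithelial-like sum of pool 1 reached the filter on low counts, too few to pass it. This call is therefore not independent of the filter.

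*Vgf*, a neurotrophin-inducible precursor of several peptides, was found in 4 IL cells, with 4 UMIs in pool 1 and 1 UMI in pool 2 (14.2 and 4.01 CPM). It had 0 UMIs in every other type. Over both pools, IL cells held 9.42 CPM, 1.54-fold above the limit of 3 counts in pituicytes, the counting error of these 5 UMIs left aside. By pool, the limit in pituicytes was 12.7 CPM in pool 1 and 11.8 CPM in pool 2, the latter above IL cells. In epithelial-like and immune cells the limit over both pools lies above the level of IL cells. A difference from those types was not detectable at this depth, and that from pituicytes is not clear.

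All 5 tested genes were thus called higher in IL cells, where 16.7% of the 4510 genes tested were called higher and 2.08% lower. With library sizes in place of TMM, 454 genes were higher and 138 lower, in place of 755 and 94, and all 5 remained called. DESeq2 called 4 of the 5 and gave no adjusted p for *Scg3*. That gene passed the filter on low counts through IL cells alone, and *Resp18* would not have passed it without them. The median ln fold change of the 5 was 4.46, beside 0.38 over all genes tested. Vascular endothelia had no UMI of the 6 genes. VLMC had none of *Chga*, *Chgb*, *Scg2* and *Scg3*, T-cell like cells none of *Chgb*, *Scg3* and *Resp18*, and macrophage/microglia none of *Scg3*. The size of these fitted values therefore depends in part on the prior count of edgeR. This also holds for contrasts with immune cells where T-cell like cells had none of a gene. The cells had been typed by clustering on their expression, so that these tests are not independent of the typing. When the cells were clustered again without the 6 genes and the listed vesicle genes, 502 of 528 cells kept their type. In that clustering 6 types could be named, since all 11 VLMC fell among pituicytes, and of the 6 genes *Chgb* alone was among the variable genes that the clustering would otherwise have used. In macrophage/microglia, T-cell like cells, vascular endothelia, VLMC and pituicytes, edgeR called 0 of the 5 genes, and 0 had an unadjusted p of at most 0.05 in any of these 5 types. DESeq2 called 0 there too. By edgeR, the shares of all genes called higher in those types were 16.5%, 9.47%, 3.41%, 2.88% and 16.8%, and of those called lower 1.18%, 2.75%, 0.51%, 1.51% and 0.953%. Where a type had 0 UMIs of a gene, its test could not call that gene lower. *Chga* in vascular endothelia, for example, had an ln fold change of -3.35 with an SE of 5815. The absence of lower calls is therefore no result about the level of the 6 genes there.

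In epithelial-like cells, 3 of the 5 genes were called higher than in the other types, where 7.96% of all genes were called higher and 0.155% lower. *Scg2* stood 3.89 ln units higher, with an SE of 0.38 and an edgeR adjusted p of 2.76e-22. Its levels in the 2 pools, 207 and 1235 CPM, differed widely, which this p-value hardly reflects. *Chga* stood 3.36 higher (SE 0.45) with an edgeR adjusted p of 8.36e-12, and *Chgb* 3.29 higher (SE 0.63) with an edgeR adjusted p of 7.52e-06. *Scg3*, with 2.46 (edgeR adjusted p = 0.109), and *Resp18*, with 1.68 (edgeR adjusted p = 0.112), were not called. Against immune cells, all 5 were called higher, with ln fold changes of 3.08 to 4.29, where 11.9% of all genes were higher and 7.43% lower. The *Scg3* call among these rests on 4 UMIs of pool 2 and was lost with the pool as a block (edgeR adjusted p = 0.0633). Without the hormone-rich cells, *Chgb* (3.52) and *Scg2* (2.21) stayed called against immune cells, 2 of the 4 genes that could then be tested, since *Scg3* no longer could. The UMIs of these genes in the epithelial-like cells left, 7 of *Chgb* and 6 of *Scg2*, were all of pool 2.

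The UMIs behind these values lay in few cells, as the plot of epithelial-like cells shows. Of the 143 UMIs of the 6 genes, 119 (83.2%) were in the 5 cells with at least 25 anterior lobe hormone UMIs, and 13 of the 23 cells had none. The highest cell, of pool 2, held 40 *Scg2*, 10 *Chga* and 2 *Chgb* UMIs beside 21 UMIs of *Cga*, the hormone alpha subunit, and 6 of *Lhb*, the luteinizing hormone beta subunit. The next, also of pool 2, held 27 *Scg2* and 16 *Chga* UMIs beside 21 *Cga* and 13 *Lhb* UMIs. In pool 1, the next highest cell held 6 *Chga*, 3 *Chgb*, 2 *Scg2* and 2 *Resp18* UMIs beside 359 UMIs of *Gh*, growth hormone. The 8 markers of anterior lobe endocrine cells summed to 35358 CPM in epithelial-like cells of pool 1, with *Fshb*, *Tshb*, *Pou1f1* and *Ghrhr* at 0, and to 2758 CPM in pool 2, with *Tshb*, *Pou1f1* and *Ghrhr* at 0. In IL cells they summed to 188 CPM in pool 1 and 9425 CPM in pool 2, with *Lhb* and *Fshb* at 0 in both.

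**Figure D2:**
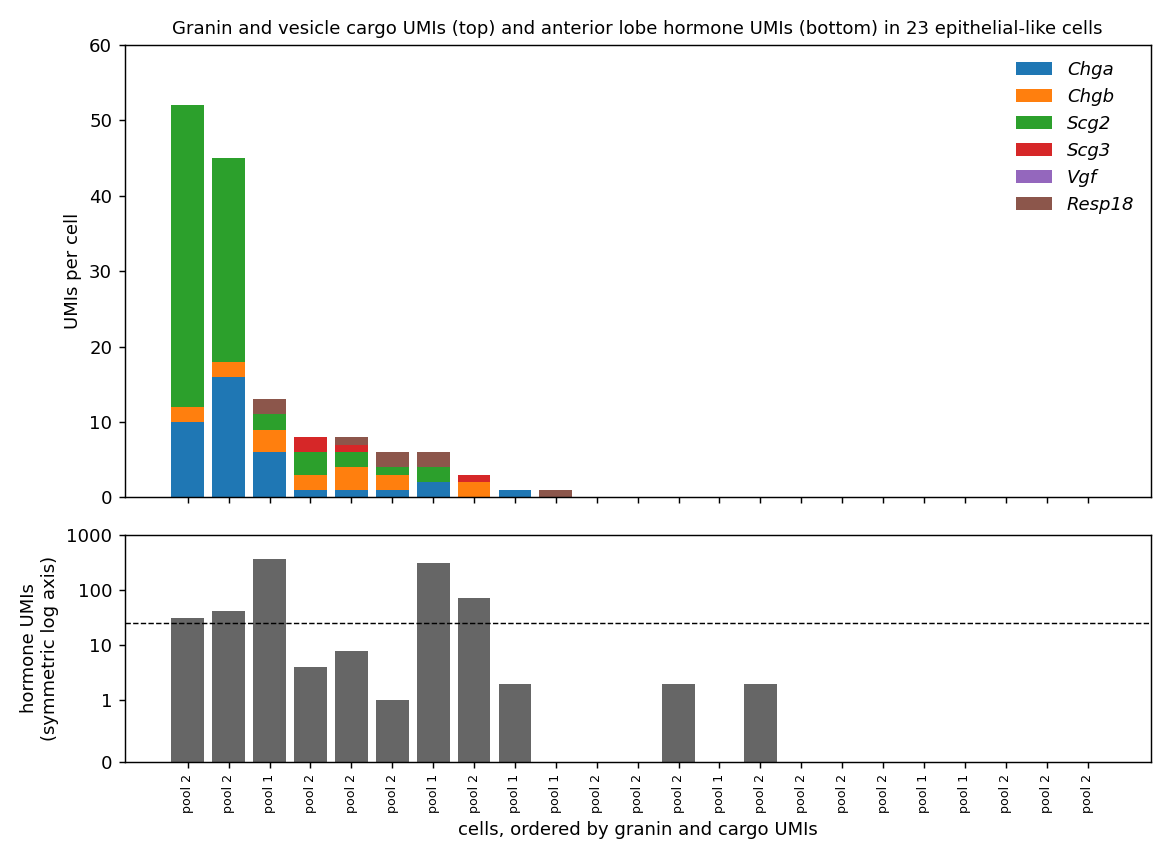
UMIs of the 6 genes, stacked by gene (upper axis), and UMIs of 6 anterior lobe hormone genes on a symmetric log axis (lower axis) in each of the 23 epithelial-like cells, ordered by the upper value. The 2 tallest bars, at 52 and 45 UMIs, are cells of pool 2 above the dashed line at 25 hormone UMIs, and 13 cells have no UMI of the 6 genes.

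Without the 5 cells, the 18 epithelial-like cells left had 67.6 and 78.7 CPM of *Chga* and 0 and 157 CPM of *Scg2* in the pools. Their *Chgb* was at 0 and 184 CPM, from 0 and 7 UMIs. In a fit without the hormone-rich cells of all types, 1 gene was called higher in epithelial-like cells, *Chgb*, with an ln fold change of 2.83 (edgeR adjusted p = 0.00987). This call rests on the UMIs of pool 2 alone. *Scg2* then had 1.79 (edgeR adjusted p = 0.177) and *Chga* 1.47 (edgeR adjusted p = 0.394). The IL calls of *Chga*, *Chgb*, *Scg2* and *Resp18* held in this fit, with ln fold changes of 4.48 to 4.85. *Scg3* could no longer be tested. Without their IL sums, none of the genes tested here would have passed the filter on low counts. These IL calls are thus not independent of the filter.

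Set directly against epithelial-like cells, IL cells were higher in 3 of the 5 genes, and lower in 0, where 3.37% of all genes were called higher and 5.72% lower. With library sizes the counts over all genes were 83 higher and 349 lower, in place of 152 and 258. *Resp18* differed most, by 2.38 ln units (SE 0.36), with an edgeR adjusted p of 2.25e-09. *Chgb* followed at 1.16 (SE 0.31), with an edgeR adjusted p of 0.00397, and *Chga* at 0.92 (SE 0.27), with an edgeR adjusted p of 0.00928. *Scg2*, at 0.52 (SE 0.24; edgeR adjusted p = 0.214), and *Scg3*, at 1.10 (SE 0.55; edgeR adjusted p = 0.259), were not called. With the pool as a block *Scg2* was called (0.71, edgeR adjusted p = 0.0445). Without the hormone-rich cells it was called as well, with 2.63 (edgeR adjusted p = 6.05e-10), and the value of *Chga* was 2.83. With library sizes in place of TMM, with DESeq2 or with a mitochondrial limit of 10%, *Resp18* alone stayed called.

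The make-up of the 6 genes differed between these groups of cells, chosen after the values were seen and described here without a test. In the other 141 IL cells, *Scg2* took 32.1% of the UMIs of the 6 genes (exact 95% interval 29.9 to 34.4%), *Chga* 27.6%, *Resp18* 25.4% and *Chgb* 11.3% (interval 9.80 to 12.8%). In the 7 hormone-rich cells under the IL label, *Chgb* took 56.5% (interval 46.6 to 66.0%) and *Chga* 2.78% (interval 0.577 to 7.90%). In the 2 epithelial-like cells with most *Lhb* UMIs, *Scg2* took 69.1% (interval 58.9 to 78.1%) and *Chga* 26.8%. *Resp18* gave 0 of their 97 UMIs, with an exact 95% interval up to 3.73%. Intervals and limits cover counting error only. *Chgb* took 4.12% in these 2 cells (interval 1.13 to 10.2%). The *Chgb* values per IL cell are plotted against the hormone UMIs.

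**Figure D3:**
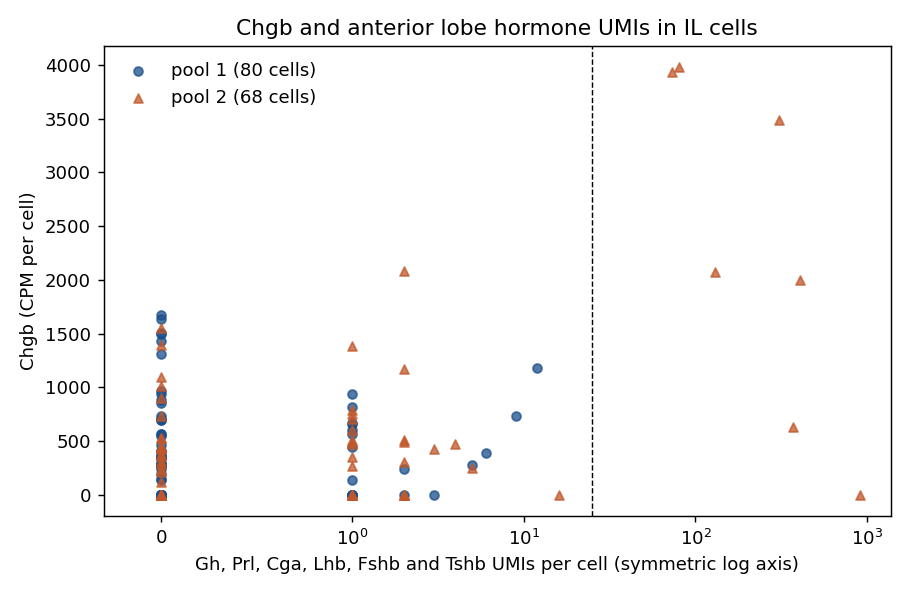
*Chgb* level per IL cell in CPM (vertical axis) against the UMIs of 6 anterior lobe hormone genes in the same cell on a symmetric log axis (horizontal axis), with circles for the 80 cells of pool 1 and triangles for the 68 of pool 2. The 7 cells right of the dashed line at 25 hormone UMIs are all of pool 2, and their *Chgb* ranged from 0 to 3979 CPM.

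Within these 7 cells, *Chgb* counts were 23, 14, 13, 8, 2, 1 and 0. The cells with 23, 14 and 13 had mainly *Prl* UMIs, 75, 305 and 72 of them, where *Prl* encodes prolactin. The other 4 had mainly *Gh* UMIs, from 119 to 910. In the rest of the IL cells the median was 1 *Chgb* UMI in each pool, with at most 6 in pool 1 and 7 in pool 2.

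In pituicytes, the 6 genes were at or near 0 in nearly every cell: 183 of 196 cells had none of their UMIs. The 2 *Pomc*-rich cells held 43 of the 60 UMIs. The higher of them, of pool 2, had 22 *Scg2*, 3 *Chga*, 3 *Scg3*, 3 *Resp18* and 1 *Chgb* UMIs, and it fell among IL cells when the cells were clustered again without the vesicle genes. The other, of pool 1, had 5 *Chga*, 5 *Resp18* and 1 *Scg2* UMIs. Against immune cells, *Scg2* was called higher in pituicytes by 1.68 ln units (SE 0.59), with an edgeR adjusted p of 0.0173, and *Resp18* by 2.25 (SE 0.88), with an edgeR adjusted p of 0.0335. These are 2 of 5 genes, where 21.2% of all genes were called higher and 12% lower. T-cell like cells had 0 *Resp18* UMIs, so that the size of its value depends in part on the prior count of edgeR. Neither call held without the 2 *Pomc*-rich cells, where *Scg2* had -0.57 (edgeR adjusted p = 0.692) and *Resp18* 1.70 (edgeR adjusted p = 0.189).

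The 194 pituicytes left held 3 *Chga*, 2 *Chgb*, 2 *Scg2* and 10 *Resp18* UMIs. Of the latter, 7 lay in 6 of the 87 cells of the authors' cluster pituicytes a, all in pool 2. That cluster held 67 *Pomc* UMIs. The other 3 *Resp18* UMIs lay in pituicytes c, in pool 1. The 53 cells of pituicytes b had 136 *Pomc* and 0 *Resp18* UMIs. Depth differed, with 221651 UMIs of all genes in pituicytes a and 85646 in these 53 cells. In the immune cells, macrophage/microglia had 6 UMIs of the 6 genes and T-cell like cells had 2. Of the former, 4 lay in 1 cell that Scrublet marked as a doublet.

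The ratios of levels over both pools put these ranges side by side. *Chga* was 40.0 times higher in IL cells than in pituicytes (counting interval 22.2 to 80.8) and *Resp18* 23.7 times (interval 14.8 to 40.4). For *Scg2* the ratio was 21.0 (interval 14.1 to 32.7), but 117 in pool 1 and 12.9 in pool 2, the pool with the cell of 22 *Scg2* UMIs. For *Chgb* it was 78.3 (interval 26.5 to 382), from 3 UMIs in pituicytes. Against the 194 pituicytes without the *Pomc*-rich cells, the ratio was 143 for *Chga* (interval 48.8 to 698) and 256 for *Scg2* (interval 70.7 to 2123). It was 41.7 for *Resp18* (interval 22.5 to 87.5) and 115 for *Chgb* (interval 31.4 to 953). These rest on 3, 2, 10 and 2 UMIs in these pituicytes, and on all IL cells, the hormone-rich ones included. With those left out as well, the ratio was 91.2 for *Chgb* (interval 24.9 to 758). It was then 149 for *Chga*, 260 for *Scg2* and 41.2 for *Resp18*.

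Shares of cells with a UMI gave a similar order of types. With each cell thinned to 1000 UMIs, 56.8% of IL cells had a *Scg2* UMI (exact 95% interval 48.4 to 64.9%, 85.1% before thinning) and the same share, 56.8%, a *Resp18* UMI (83.1% before thinning). *Chga* was found in 48.0% (interval 39.7 to 56.3%, 79.7% before), *Chgb* in 33.8% (interval 26.2 to 42.0%, 62.8% before), *Scg3* in 10.1% (29.7% before) and *Vgf* in 0.676% (2.70% before). In epithelial-like cells, *Chga* was found in 21.7% (interval 7.46 to 43.7%) and *Scg2* in 17.4%. Without the hormone-rich cells both shares were 5.56%, from 1 of 18 cells. Immune cells, which should lack these genes, had 0.730% for *Chga* and for *Scg2* and 0% for the others (exact interval up to 2.66%). Pituicytes had 1.02% for *Chga* and *Scg2* and 3.06% for *Resp18* (interval 1.13 to 6.54%), or 0.515% and 2.58% without the *Pomc*-rich cells. Median depths before thinning were 3249 UMIs for IL, 2324 for epithelial-like cells, 2056 for pituicytes, 1596 for T-cell like cells and 1739 for macrophage/microglia.

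**Figure D4:**
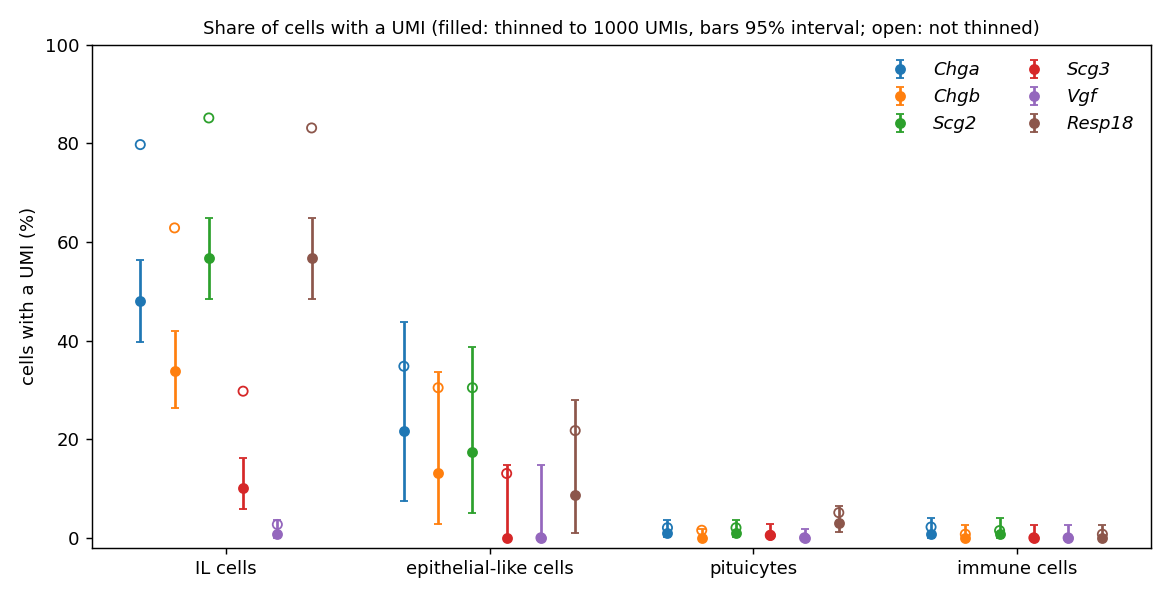
Share of cells in percent (vertical axis) with at least 1 UMI of each gene by type (horizontal axis: IL, epithelial-like, pituicyte and immune). Filled points are cells thinned to 1000 UMIs with exact 95% intervals, open circles the same cells before thinning, and IL cells range from 0.676% for *Vgf* to 56.8% for *Scg2* and *Resp18* after thinning.

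Most IL cells held UMIs of more than 1 of the genes. How many do depends on the share of cells with each single gene, and joint detection beyond those shares was not tested. After thinning, 70.3% of IL cells (104 of 148) had UMIs of at least 2 of the 6 genes, 70.0% in pool 1 and 70.6% in pool 2. In epithelial-like cells the share was 21.7%, in pituicytes 1.53% and in immune cells 0%. Without the hormone-rich and *Pomc*-rich cells, the share was 69.5% in IL cells, 5.56% in epithelial-like cells and 0.515% in pituicytes. After thinning, 0 IL cells had all 6, 1 had 5, and 54 had 2, the most frequent number. Before thinning, 1 IL cell had all 6 and 30 had 5. Across IL cells of a pool, the counts of pairs of these genes had weak Spearman correlations after thinning, from -0.22 to 0.31 over 15 pairs in both pools (without the *Vgf* pairs in pool 2), with a median of 0.03. Of these pairs, 0 exceeded 0.1 in both pools. Such values come from sparse counts of cells that share a library and are a description.

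Free RNA carried the same genes. Barcodes of pool 1 with 1 to 50 UMIs, which lie far under the depth of a cell, held 280 *Chga*, 145 *Chgb*, 235 *Scg2*, 26 *Scg3*, 3 *Vgf* and 318 *Resp18* UMIs beside 29795 *Pomc* UMIs. Per 1000 *Pomc* UMIs this was 9.40 for *Chga* (exact 95% interval 8.32 to 10.6), against 9.29 in IL cells of the same pool (8.28 to 10.4). For *Scg2* the values were 7.89 and 8.31, and for *Scg3* 0.873 and 0.863, with intervals that overlapped. *Chgb*, at 4.87 (4.11 to 5.73) against 3.25 (2.66 to 3.92), and *Resp18*, at 10.7 (9.53 to 11.9) against 8.31 (7.36 to 9.35), were higher in these barcodes. With barcodes of 51 to 200 UMIs instead, *Resp18* was at 8.12 (6.77 to 9.67) and *Chga* at 7.86 (6.53 to 9.39), both below IL cells with intervals that overlapped, while *Chgb* was at 4.604 (3.60 to 5.80). *Pcsk2*, the convertase of melanotropes, was lower there, at 14.8 against 40.3. The same barcodes held 400 *Oxt* and 178 *Gh* UMIs per 1000 *Pomc*, whereas IL cells of pool 1 held 0.834 and 0.655. In immune cells, 7 neuron markers, *Oxt* among them, summed to 111 CPM in pool 1 and 139 CPM in pool 2. The 6 melanotrope markers, *Pomc* among them, summed there to 982 and 847 CPM. Immune cells thus held less *Oxt* relative to *Pomc* than these barcodes.

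**Figure D5:**
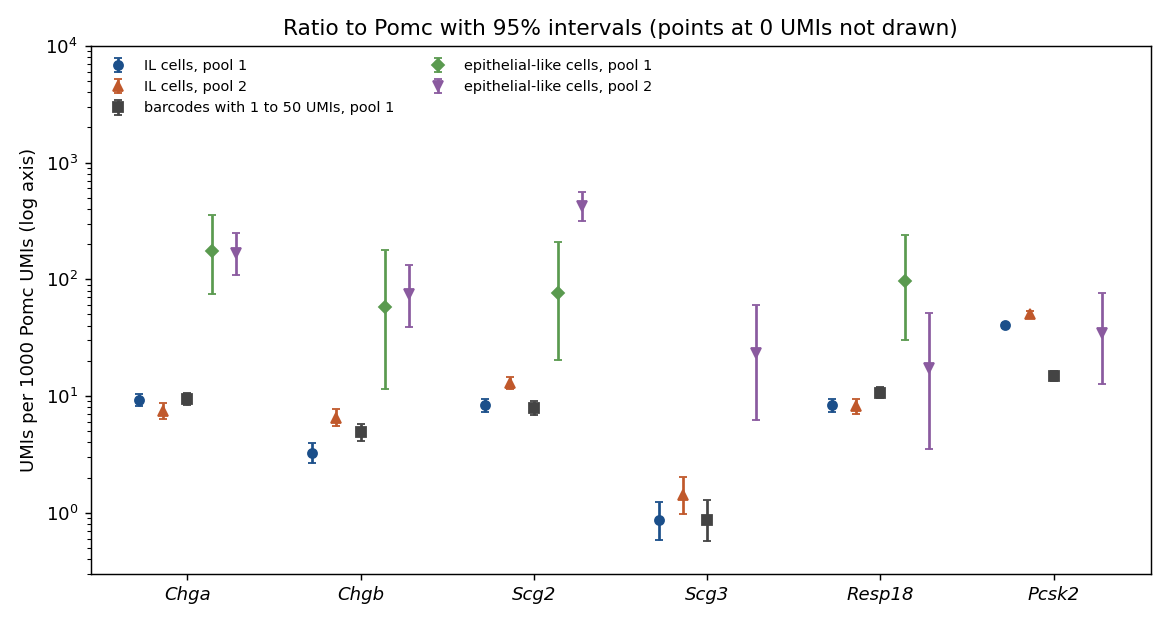
UMIs of 5 of the genes and of *Pcsk2* per 1000 *Pomc* UMIs on a log axis (vertical axis) in IL cells, in epithelial-like cells and in barcodes with 1 to 50 UMIs, by pool, with exact 95% intervals. Barcodes lie near IL cells for *Chga*, *Scg2* and *Scg3*, and epithelial-like cells, the hormone-rich ones included, lie above both for *Chga*, at 173 and 168.

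Epithelial-like cells departed from this ratio. They held 173 *Chga* UMIs per 1000 *Pomc* in pool 1 and 168 in pool 2. Their *Scg2* was at 76.9 and 422. Without the 5 hormone-rich cells, *Chga* was at 21.7 and 27.0, from 1 and 3 UMIs, and *Scg2* at 0 and 54.1, from 0 and 6 UMIs, beside 46 and 111 *Pomc* UMIs. Scaled by *Pomc* in immune cells, free RNA was estimated to give 4.08 *Chga*, 2.11 *Chgb*, 3.42 *Scg2* and 4.63 *Resp18* UMIs in pituicytes, where 11, 3, 25 and 18 were found. In the 194 pituicytes without the *Pomc*-rich cells the estimates were 3.98, 2.06, 3.34 and 4.52, where 3, 2, 2 and 10 were found. In macrophage/microglia 1.63 *Chga* UMIs were estimated and 2 found. In IL cells the estimate for *Chga* was 4.46, where 478 were found. The profile for both pools was that of pool 1, since the matrix of pool 2 listed no barcode under 221 UMIs. These estimates take the free RNA in cells to have the make-up of that profile. For *Oxt* the immune cells departed from it, as given above, and for the 6 genes this was not tested.

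The IL cells form 2 clusters in the authors' table, neural progenitor a and b. Of the 5 genes tested, edgeR called 0 in either direction, with 0 at an unadjusted p of at most 0.05, and DESeq2 called 0. Over all genes, 0.0584% were called higher in a and 0% in b. The authors' mean for *Scg2* was 10.6 UMIs per 10000 in a and 8.28 in b, and for *Chgb* 5.43 and 3.66. For *Chga* the authors' means were 7.81 and 8.90 and for *Resp18* 8.99 and 7.89. The ln fold change of *Chgb*, at 0.48, with an SE of 0.25 and an edgeR adjusted p of 1, was the largest of the 5. All 7 hormone-rich cells lay in cluster a of pool 2, with 61 of its 113 *Chgb* UMIs, and the authors' means include them. *Chgb* was at 389 CPM in a and 386 in b in pool 1, and at 765 and 324 in pool 2, where cluster a without these cells had 415 CPM. The ln fold change was then 0.12 (edgeR adjusted p = 1). After thinning, 70.2% of cluster a and 70.4% of cluster b had at least 2 of the genes.

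Other genes of the vesicle pathway were read from lists of known vesicle genes. Of 8 tested genes for granin-related proteins and processing enzymes, 5 were called higher in IL cells, where 16.7% of all genes were, with a list median of 2.75, and 0 lower. They were led by *Pcsk2* (ln fold change 5.64), by *Scg5*, which encodes the chaperone of that convertase (4.64), and by *Cpe*, the carboxypeptidase that trims the cut peptides (3.31). The lowest was the lysosomal protease *Ctsl*, at -0.41. Of 10 tested genes for vesicle release, 10 were called higher, with a median of 3.02. They were led by *Snap25*, a SNARE protein (4.86), the calcium sensor *Syt1* (4.62) and its relative *Syt4* (4.24).

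Of 9 tested genes for the vesicle membrane and its biogenesis, 3 were called higher in IL cells and 0 lower, with a median of 0.74. Over all genes tested, 16.7% were called higher and 2.08% lower. These were *Ptprn*, a receptor-like phosphatase of the vesicle membrane (5.05), *Cyb561*, an electron carrier of that membrane (ln fold change 2.302), and *Vamp4* (1.11). *Sort1*, a sorting receptor, was lowest at 0.24. *Cyb561* was not highest in IL cells, at 60.4 and 68.1 CPM, beside 76.4 and 94.7 in pituicytes and 259 and 84.6 in epithelial-like cells. It was called higher in pituicytes (2.55) and in epithelial-like cells (2.78) as well. Of 4 tested peptide cargo genes, *Pomc* (4.77) and *Nucb2* (1.19) were called, while *Avp* had -0.61 and *Oxt* -0.66, both short of the fold limit, and were not. The median over all genes was 0.38. In epithelial-like cells, 3 of 8 processing genes, 1 of 9 membrane genes, 3 of 10 release genes and 0 of 4 cargo genes were called higher, beside 7.96% of all genes.

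For each member, the 3 genes most like it were taken by the Pearson correlation of log2(CPM + 100) over the 14 sums of types and pools. The correlation is a description, since the sums share pools and differ in depth. *Chgb* was closest to *Syt4* (r = 0.993), *Rit2* and *Slitrk6*, and *Scg2* to *Syt4* (r = 0.980), *Dbpht2* and *Pak3*. *Resp18* was closest to *Syt1* (r = 0.981), *Rgag4* and *Ccdc109b*. *Chga* was closest to *Npas4*, an activity-regulated transcription factor (r = 0.987), *Slitrk6* and 5330417C22Rik. *Scg3* was closest to *Rorb* (r = 0.996), *Dner* and *Tbx19*, the transcription factor of *Pomc* cells. *Vgf*, with 5 UMIs, was closest to *Rundc3a* (r = 0.916), *Zdbf2* and *Rbfox3*. *Syt4* was found at 281 and 429 CPM in IL cells and at 104 and 220 CPM in epithelial-like cells.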

How the data were processed

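For either pool the authors deposited a matrix of UMI counts by gene and barcode, not normalized, made with Cell Ranger and an mm10 reference, and a table of means per cluster over both pools. The authors' table holds linear means of UMI counts scaled to 10000 per cell, and their processing notes name Seurat 2.3. It gave cluster membership and the authors' means of the IL clusters. The 6 genes and all lists were chosen with earlier results of these data known.

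As in the study, a cell had over 1000 and under 10000 UMIs, 400 to 5000 genes and mitochondrial UMIs under 25%. Each cell was given the authors' cluster by non-negative least squares on the 11 cluster means (lowest own weight 0.981). The mean of the assigned cells differed from the table by over 0.05 in 349 of 15025 genes, by at most 1.46. Clusters were merged to 7 types by name. Counts were summed per type and pool into 14 sums of 8491 to 281271 UMIs, and CPM refers to a sum.

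Sums were scaled by TMM and tested by quasi-likelihood in edgeR 4.0.16 (R 4.3.3), for the 4510 genes that passed filterByExpr at a count of 5 and a total of 15. The fit of all sums had a common dispersion of 0.038 on 7 residual degrees of freedom, and p-values were adjusted over all genes by the Benjamini-Hochberg method. Contrasts set a type against the average of the other 6. Direct contrasts were called at an adjusted p of at most 0.05. The fit was tested on simulated counts. Types of a pool share mice and library, which pairs their sums. The pool differences of types had correlations across genes of -0.03 to 0.15 over 21 pairs, with a median of 0.03. The groups are pools of mice, and single cells were not used as replicates.

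Exact intervals are Clopper-Pearson at the 95% level. Doublets were called with Scrublet (scanpy 1.11.5), which marked 5 cells, and were kept. The text names the 6 genes, from each vesicle list the 3 tested genes with the largest and the 1 with the smallest ln fold change in IL cells, the 3 genes most like each member, and *Pomc*, *Pcsk2*, *Oxt*, *Avp*, *Gh* and *Prl* as source genes. The smallest value of the release list is not reported here. *Cga*, *Lhb* and the marker genes describe cells. Alternatives were library size, DESeq2 1.42.0, no filter, the pool as a replicate block, each pool alone, a mitochondrial limit of 10%, doublets left out, clustering without the 6 genes and the vesicle genes, thinning to 500 UMIs or none, and other barcodes as free RNA. Leaving out cells rich in anterior lobe hormone or *Pomc* UMIs was added after the data were seen.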

Additional observations from a re-analysis of the deposited data

Results flagged for a closer look

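A barcode of pool 2 outside the kept cells, with 453 UMIs and a mitochondrial share of 68.4%, held 10 *Vgf* UMIs, against 5 in all 528 kept cells and a limit of 3 counts. It was singled out because its signal lay in data that the comparisons do not use. The same barcode held 5 *Scg2*, 2 *Chga*, 1 *Chgb* and 1 *Scg3* UMIs and 0 UMIs of *Resp18*, *Pomc*, *Pcsk2*, *Gh* and *Prl*.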

How the results depend on the processing

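The calls of *Chga*, *Chgb*, *Scg2* and *Resp18* in IL cells against the other types held under every alternative with a test, and with 1 pool left out their values kept their sign (3.84 to 5.09 over all alternatives). *Scg3* kept its call wherever it could be tested, from 3.63 to 4.50, and had no adjusted p in DESeq2. In the main fit *Resp18*, like *Scg3*, would not have passed the filter on low counts without its IL sums. In the fit without hormone-rich cells this held for *Chga*, *Chgb* and *Scg2* as well. The number of genes higher in IL cells than in epithelial-like cells was 3, but 1 with library size in place of TMM, with DESeq2 and with the 10% mitochondrial limit, and 4 with the pool as a block. Those lower stayed at 0 under these settings. Against immune cells, the 2 pituicyte calls became 0 with DESeq2, after clustering without the vesicle genes and without the *Pomc*-rich cells, and 1 with no filter. Clustering again gave *Chga* -0.32 and *Scg2* -0.012, and leaving out the *Pomc*-rich cells gave *Chga* -0.55 and *Scg2* -0.57. Without hormone-rich cells, the 3 epithelial-like calls against the other types (4 without the *Pomc*-rich cells) became 1, and the 5 against immune cells became 2 of the 4 that could be tested. The replicate block changed the calls of *Scg2* in IL against epithelial-like cells (0.71) and of *Scg3* in epithelial-like against immune cells (3.42), and no other call of the 6 genes.

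With replicate pool 1 or pool 2 left out there is 1 sample per type and no test. *Scg3* in epithelial-like cells against the other types then ranged from -0.75 to 2.73, and *Scg2* in pituicytes against immune cells from -0.49 to 4.31. Between the IL clusters, *Chgb* ranged from -0.0070 to 0.89 and *Scg3* from -0.33 to 0.45. The share of IL cells with *Vgf* ranged from 0 to 1.25%. For the other shares, leaving out a pool kept the value within its interval. The mean number of genes per IL cell, which has no interval, was 2.075 in pool 1 and 2.044 in pool 2.

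Library size in place of TMM moved the median of all genes in IL cells against the other types from 0.38 to 0.12, with 454 genes higher and 138 lower in place of 755 and 94. With DESeq2 the counts were 352 and 140, with no filter 2304 and 79, and with the 10% limit 276 and 41. The causes were not tested. Thinned to 500 UMIs, the shares of IL cells were 33.8% for *Chga*, 21.6% for *Chgb*, 37.2% for *Scg2*, 3.38% for *Scg3* and 35.8% for *Resp18*. Without thinning they were 79.7%, 62.8%, 85.1%, 29.7% and 83.1%. The mean number of the 6 genes per IL cell was 2.06 at 1000 UMIs and 1.32 at 500, since fewer UMIs were drawn. Per 1000 *Pomc* UMIs, barcodes of 1 to 20 UMIs held 6.13 *Chgb*, 0.307 *Vgf* and 12.1 *Resp18*, and barcodes of 51 to 200 UMIs held 7.86 *Chga*, 0 *Vgf* and 8.12 *Resp18*. *Vgf*, with 5 UMIs, could not be tested, and p-values rest on a spread between 2 pools that is shared over genes.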

Other observations

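Barcodes over the upper limit of 10000 UMIs, 9 in pool 1 and 11 in pool 2, held 404 and 371 UMIs of the 6 genes, which is 12.4% and 18.7% of all such UMIs in their pools. *Chgb* made up 67 of these in pool 1 and 116 in pool 2, *Chga* 160 and 86. Barcodes of 1 to 200 UMIs held 44.8% of the UMIs of the 6 genes in pool 1, which were not assigned to cells, and pool 2 listed no such barcode. The shares of 12.4% and 18.7% thus have unlike totals and cannot be compared between the pools. A barcode of pool 2 with 1041 UMIs outside the kept cells held 447 *Prl* UMIs beside 6 *Chgb* and 1 *Chga* UMIs.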
